A study of Mus musculus with 11 samples.

Results

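The genes described here are 10 members of the NF-kappa-B system, subunits of the transcription factor and the proteins that switch it off, read from vascular fragments of mouse brain after an experimental stroke. They were taken by symbol (Nfkbia, Nfkbiz, Nfkbie, Tnfaip3, Bcl3, Rel, Relb, Nfkb1, Nfkb2 and Tnip1), and each symbol stood on 1 row of the table, so 10 of the 30789 genes tested are members. The fragments are pieces of vessel from the injured hemisphere after a middle cerebral artery occlusion (MCAO), in which a main artery of the forebrain is blocked. All mice were adult male C57BL/6 and had the occlusion, and the labels name no engineered allele. The 11 arrays fall into 4 groups: 3 arrays of imatinib at 24 h, 3 of PBS at 24 h, 2 of imatinib at 3 h and 3 of PBS at 3 h. Imatinib is a tyrosine kinase inhibitor whose targets include ABL, KIT and PDGF receptors, and PBS is a buffered saline. Animals taken at 24 h had received 4 treatments and animals taken at 3 h had received 3, so time and number of treatments cannot be told apart. No vessels from unoperated or sham-operated brain were analysed here.

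Each value is a log2 array signal after RMA, a probe summary that also normalizes the arrays against each other, so a difference of 1 is a 2-fold difference in signal. Precision is limited by the number of arrays. Since no label states that replicates are separate animals, the p-values speak of the spread among these arrays, which may be technical. Pearson's r across genes was 0.972 to 0.993 between any 2 arrays. All 10 members lay above the 25th percentile of the array (3.83 to 3.92) on all 11 arrays. The 12 endothelial markers, among them Pecam1, Cdh5 and Cldn5, had a mean log2 signal of 10.61 to 11.22 on every array, and no marker of this list, of the 8 pericyte or of the 5 smooth muscle markers lay below the 25th percentile throughout a group. In such bulk samples fewer cells of a type and less RNA per cell cannot be told apart.

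NF-kappa-B is a family of dimeric transcription factors built from RelA, RelB, c-Rel and the products of Nfkb1 and Nfkb2. In resting cells the dimers are held back by inhibitors of the I-kappa-B family, which are destroyed when tumour necrosis factor, interleukin 1 or Toll-like receptors activate the I-kappa-B kinases. The freed dimers then induce cytokines, chemokines and adhesion molecules and, with them, several of their own inhibitors, which ends the response. In brain vessels the pathway is known for turning on the molecules that recruit leukocytes after injury.

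NF-kappa-B dimers bind a short DNA motif, the kappa-B site. The kappa-B consensus was searched on both strands, overlaps counted, in the 250 bases before the start of each gene in a RefSeq promoter table (GRCm38.p6). A match was found in 8.23% of 27025 genes. Of the 7 members in that table, 6 held at least 1 match (Nfkbia, Nfkbie, Tnfaip3, Rel, Nfkb2 and Tnip1) and Bcl3 held none in this window. The windows are given 5′ to 3′ on the gene's strand, with matches in capitals, for the 4 members whose signal passed the test between times, so that these letters can be read beside the values: Nfkbia at chr12:55492648-55492897 (minus strand), Nfkbie at chr17:45555450-45555699 (plus strand), Tnfaip3 at chr10:19015411-19015660 (minus strand) and Rel at chr11:23770970-23771219 (minus strand). Tnfaip3 has another start in the table, whose window held no match.
Nfkbia: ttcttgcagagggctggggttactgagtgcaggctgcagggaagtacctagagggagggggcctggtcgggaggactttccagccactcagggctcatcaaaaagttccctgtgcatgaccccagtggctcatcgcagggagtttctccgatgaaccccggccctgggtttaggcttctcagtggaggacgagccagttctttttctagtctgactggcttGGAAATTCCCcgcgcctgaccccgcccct
Nfkbie: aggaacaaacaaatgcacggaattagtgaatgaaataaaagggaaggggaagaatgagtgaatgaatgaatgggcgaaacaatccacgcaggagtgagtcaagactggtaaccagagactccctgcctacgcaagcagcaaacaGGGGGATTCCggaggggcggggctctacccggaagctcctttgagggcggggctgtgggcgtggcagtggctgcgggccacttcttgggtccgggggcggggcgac
Tnfaip3: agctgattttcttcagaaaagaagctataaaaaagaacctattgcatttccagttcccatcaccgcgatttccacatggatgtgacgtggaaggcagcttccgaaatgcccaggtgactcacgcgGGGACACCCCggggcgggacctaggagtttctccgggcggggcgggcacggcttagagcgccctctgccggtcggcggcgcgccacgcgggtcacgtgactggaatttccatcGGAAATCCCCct
Rel: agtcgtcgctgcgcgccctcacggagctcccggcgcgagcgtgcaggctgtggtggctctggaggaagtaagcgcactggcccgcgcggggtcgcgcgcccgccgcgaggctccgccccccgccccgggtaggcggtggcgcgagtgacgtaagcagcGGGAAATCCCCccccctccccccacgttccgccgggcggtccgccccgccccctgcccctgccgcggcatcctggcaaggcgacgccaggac
The single match of Nfkbia, GGAAATTCCC, began 29 bases before the start, and that of Nfkbie, GGGGGATTCC, began 106 bases before it. Tnfaip3 held GGGACACCCC at 125 bases and GGAAATCCCC at 12 bases before its start. In Rel, GGGAAATCCC and GGAAATCCCC overlapped by all but 1 base, at 92 and 91 bases. Tnip1 held GGGGAATTCC at 58 bases, and the window of the most upstream Nfkb2 start held GGGAATTCCC at 39 and GGGGCTTTCC at 11 bases. These are matches of letters, and binding was not measured in these samples.

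Between 3 h and 24 h the inhibitors moved in different directions. Nfkbia fell in both treatments, Nfkbie and Tnfaip3 rose in PBS vessels, Rel fell in imatinib vessels, and the other members did not pass the test. By limma with Benjamini-Hochberg adjustment over all 30789 genes at a threshold of 0.05, 2 of 10 members were called in imatinib vessels, both lower at 24 h, where 13.1% of all genes were called (7.76% higher and 5.32% lower). In PBS vessels 3 of 10 were called, 2 higher and 1 lower, where 16.6% of all genes were called (9.34% higher and 7.28% lower). The median log2 difference of the members was 0.04 in imatinib vessels and 0.03 in PBS vessels, beside -0.04 over all genes in imatinib and -0.02 in PBS vessels. In imatinib vessels the 24 h and 3 h arrays did not overlap for 4 members (42.3% of all genes), 1 of them higher (19.4%) and 3 lower (22.8%) at 24 h. In PBS vessels this held for 5 members (29.9%), 3 of them higher (15.2%) and 2 lower (14.7%). At an unadjusted p under 0.05 there were 3 members in imatinib vessels (25% of all genes) and 4 in PBS vessels (27.3%). Counts this near the background are no result about the members as a set.

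**Figure D1:**
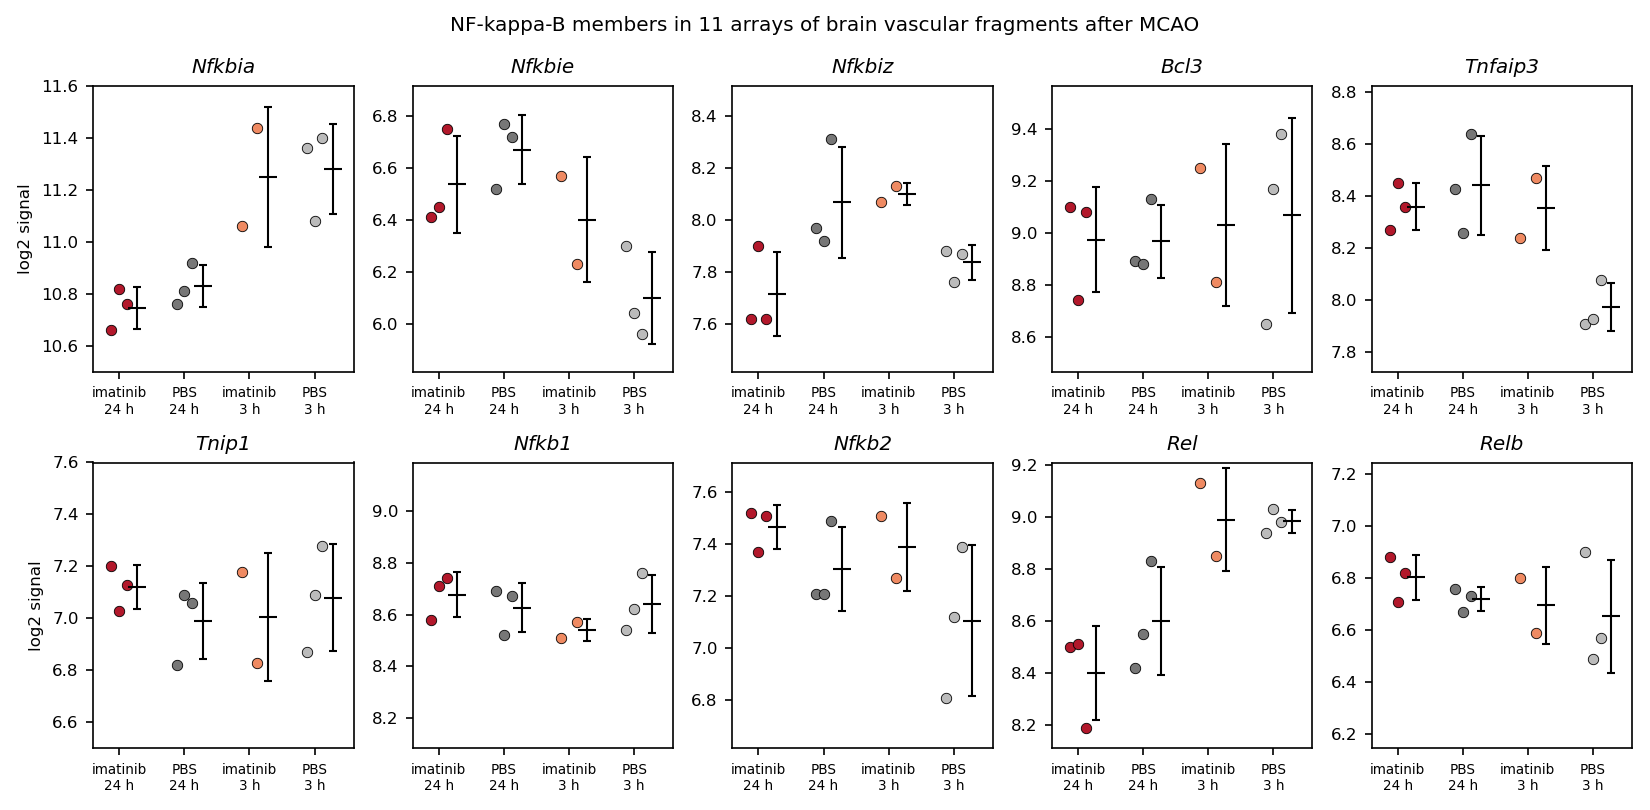
Log2 signal of each of the 10 members on the 11 arrays, with 1 panel per gene and equal spans on the vertical axes. Points are arrays, and the bar beside them is the group mean with its SD (n = 3, and n = 2 for imatinib at 3 h). Nfkbia and Rel lie lower at 24 h in both treatments, Tnfaip3 is lowest in PBS at 3 h, and Nfkbiz is high in PBS at 24 h and imatinib at 3 h.

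Nfkbia encodes I-kappa-B-alpha, the inhibitor that is lost and resynthesized fastest in the classical response. Its log2 signal was 10.66, 10.82 and 10.76 in imatinib vessels and 10.76, 10.81 and 10.92 in PBS vessels at 24 h, against 11.06 and 11.44 in imatinib vessels and 11.36, 11.08 and 11.40 in PBS vessels at 3 h. Every 24 h array was below every 3 h array, and the treatments overlapped at both times. The difference between times was -0.50 ± 0.139 (SE) in imatinib vessels, 1.41-fold lower (adjusted p = 0.0352), and -0.45 ± 0.124 in PBS vessels, 1.37-fold lower (adjusted p = 0.0282). Leaving out 1 array ended the call in PBS vessels for PBS 3 h replicates 1 (-0.41, adjusted p = 0.0849) and 3 (-0.39, 0.0967) and for PBS 24 h replicates 1 (-0.42, 0.0934) and 2 (-0.44, 0.0754). In imatinib vessels it was lost without imatinib 3 h replicate 2 (-0.31, adjusted p = 0.289) or imatinib 24 h replicate 1 (-0.46, 0.105), 2 (-0.53, 0.0621) or 3 (-0.51, 0.0815). It was also lost in a fit of only the 2 imatinib groups (-0.50, adjusted p = 0.0676) and with arrays centred on their medians (-0.46, 0.0528).

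Nfkbie encodes I-kappa-B-epsilon, a slower inhibitor of the same kind. Its signal was 6.41, 6.45 and 6.75 in imatinib vessels and 6.52, 6.77 and 6.72 in PBS vessels at 24 h, and at 3 h it was 6.57 and 6.23 in imatinib vessels and 6.30, 6.04 and 5.96 in PBS vessels. The 24 h arrays lay above the 3 h arrays without overlap in PBS vessels and overlapped them in imatinib vessels. Nfkbie rose 1.49-fold between times in PBS vessels (log2 difference 0.57 ± 0.139, adjusted p = 0.0147). In imatinib vessels the difference was 0.14 ± 0.156 (adjusted p = 0.655). The call in PBS vessels was lost without the third PBS array at 3 h (0.50, adjusted p = 0.058) and without replicate 2 (0.52, 0.0548) or 3 (0.55, 0.0529) of PBS at 24 h.

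Tnfaip3 encodes A20, an enzyme that removes and rebuilds ubiquitin chains and so stops signalling upstream of the I-kappa-B kinases. Its signals were 8.27, 8.45 and 8.36 in imatinib vessels and 8.43, 8.26 and 8.64 in PBS vessels at 24 h, and 8.24 and 8.47 in imatinib vessels and 7.91, 7.93 and 8.08 in PBS vessels at 3 h. The PBS arrays at 3 h stood below the 8 others, which overlapped. Over time Tnfaip3 rose 1.39-fold in PBS vessels (0.47 ± 0.118, adjusted p = 0.0167), and in imatinib vessels the difference was 0.00 ± 0.132 (adjusted p = 0.992). It no longer passed in PBS vessels when replicate 1 (0.44, adjusted p = 0.0531) or 2 (0.45, 0.051) of PBS at 3 h was left out, or replicate 3 of PBS at 24 h (0.38, 0.0723). Whether the course differed between treatments is given by the interaction, the effect of imatinib at 24 h less its effect at 3 h, which was -0.47 ± 0.177 for Tnfaip3 (unadjusted p = 0.0222, adjusted p = 0.901) and -0.43 ± 0.209 for Nfkbie (unadjusted p = 0.0631, adjusted p = 0.904), and it did not pass for either gene.

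Tnip1 encodes a ubiquitin-binding partner of A20. Its signal was 7.20, 7.03 and 7.13 in imatinib vessels and 6.82, 7.09 and 7.06 in PBS vessels at 24 h, against 7.18 and 6.83 in imatinib vessels and 6.87, 7.09 and 7.28 in PBS vessels at 3 h. All 4 groups overlapped, and none of its differences between times or treatments passed (log2 differences of 0.11 in imatinib vessels and -0.09 in PBS vessels between times).

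The nuclear members of the I-kappa-B family, Nfkbiz and Bcl3, act on promoters rather than in the cytoplasm. Nfkbiz encodes I-kappa-B-zeta, which is needed for a subset of target genes such as Il6 and Lcn2 in macrophages. Its signal was 7.62, 7.90 and 7.62 in imatinib vessels and 7.97, 7.92 and 8.31 in PBS vessels at 24 h, and 8.07 and 8.13 in imatinib vessels and 7.88, 7.76 and 7.87 in PBS vessels at 3 h. At 24 h the imatinib arrays lay below the PBS arrays, and at 3 h they lay above them, without overlap at either time. The gap at 24 h was narrow, between 7.90 in imatinib and 7.92 in PBS vessels. Of all genes, 6.67% lay lower with imatinib without overlap at 24 h, and 9.59% lay higher at 3 h. Over time the signal was lower in imatinib vessels (-0.39 ± 0.136, adjusted p = 0.0903) and higher in PBS vessels (0.23 ± 0.122, adjusted p = 0.263), again without overlap in either treatment, and neither passed. Such separation over time was found in 22.8% of all genes (lower, imatinib vessels) and 15.2% (higher, PBS vessels). Ordered by mean, imatinib at 3 h (8.10 ± 0.042 SD) and PBS at 24 h (8.07 ± 0.21) overlapped, as did PBS at 3 h (7.84 ± 0.067) and imatinib at 24 h (7.71 ± 0.16), while the upper pair of groups did not overlap the lower pair. This order was seen in the values first, and how many of all genes showed it was not counted.

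Bcl3 binds dimers that lack an activating domain and can turn them into activators. Its signal was 9.10, 8.74 and 9.08 in imatinib vessels and 8.89, 8.88 and 9.13 in PBS vessels at 24 h, against 9.25 and 8.81 in imatinib vessels and 8.65, 9.17 and 9.38 in PBS vessels at 3 h. The spread was widest in PBS vessels at 3 h (SD 0.38), and the group means, 8.97 in both treatments at 24 h, 9.03 in imatinib and 9.07 in PBS at 3 h, were closer together than the arrays within a group.

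Among the subunits, Rel, which encodes c-Rel, an activating subunit best known from lymphoid cells, had 8.50, 8.51 and 8.19 in imatinib vessels and 8.42, 8.55 and 8.83 in PBS vessels at 24 h, against 9.13 and 8.85 in imatinib vessels and 8.94, 9.03 and 8.98 in PBS vessels at 3 h. All 24 h arrays were below all 3 h arrays. Rel fell 1.51-fold between times in imatinib vessels (-0.59 ± 0.149, adjusted p = 0.0214), and in PBS vessels the difference was -0.39 ± 0.133 (adjusted p = 0.0727). The imatinib call was lost without imatinib 3 h replicate 1 (-0.45, adjusted p = 0.183) or imatinib 24 h replicate 3 (-0.49, 0.0763). This call was also lost when the replicate number was added to the fit (-0.60, adjusted p = 0.0529). In PBS vessels the fall passed without PBS 24 h replicate 3 (-0.50, adjusted p = 0.0331). The interaction for Rel was -0.21 ± 0.199 (adjusted p = 0.948), so a larger fall with imatinib was not shown.

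Rela, the main activating subunit and not a member, was lower at 24 h in both treatments. Its signal ranged from 9.84 to 9.97 in imatinib vessels and from 9.73 to 9.88 in PBS vessels at 24 h, against 10.25 to 10.39 in imatinib vessels and 10.27 to 10.30 in PBS vessels at 3 h. The fall was -0.40 ± 0.0995 in imatinib vessels (adjusted p = 0.0218) and -0.48 ± 0.089 in PBS vessels (adjusted p = 0.00317), and the call in imatinib vessels was lost without either imatinib 3 h array (-0.33, adjusted p = 0.164, without replicate 1 and -0.46, 0.0544, without replicate 2) or without imatinib 24 h replicate 2 (-0.35, 0.0779) or 3 (-0.41, 0.0503). It was also lost in a fit of only the 2 imatinib groups (-0.40, adjusted p = 0.0602).

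The other subunits did not pass between times. Nfkb1, whose precursor yields the small subunit of the classical dimer, was 8.58, 8.71 and 8.74 in imatinib vessels and 8.69, 8.52 and 8.67 in PBS vessels at 24 h, against 8.51 and 8.57 in imatinib vessels and 8.54, 8.62 and 8.76 in PBS vessels at 3 h. Its imatinib arrays at 24 h lay just above those at 3 h (0.14 ± 0.109, adjusted p = 0.486), and in PBS vessels the times overlapped (-0.01 ± 0.0978). Nfkb2, the precursor of the non-canonical pathway, was 7.52, 7.37 and 7.51 in imatinib vessels and 7.21, 7.21 and 7.49 in PBS vessels at 24 h, against 7.51 and 7.27 in imatinib vessels and 6.81, 7.12 and 7.39 in PBS vessels at 3 h, with overlap throughout. Relb, the partner of the Nfkb2 product, was 6.88, 6.71 and 6.82 in imatinib vessels and 6.76, 6.67 and 6.73 in PBS vessels at 24 h, and at 3 h 6.80 and 6.59 in imatinib vessels and 6.90, 6.49 and 6.57 in PBS vessels. Its group means (6.80, 6.72, 6.69 and 6.65 in the same order) differed by less than the pooled SD of 0.14 between neighbours.

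Imatinib was then set against PBS at each time, which asks whether the drug altered these genes. By limma no member passed at either time, nor in the interaction, and 0% of all 30789 genes did. At an unadjusted p under 0.05, 1 of 10 members was found at 24 h (Nfkbiz, where 6.1% of all genes were), 1 at 3 h (Tnfaip3, where 6.4% were) and 2 in the interaction (Nfkbiz and Tnfaip3, where 5.49% were). The members' differences ran from -0.35 to 0.16 at 24 h and from -0.10 to 0.38 at 3 h, and their 95% intervals reached from -0.62 to 0.49 at 24 h and from -0.50 to 0.67 at 3 h, so changes of 2-fold lay outside all of them. Imatinib and PBS arrays did not overlap for 1 member at 24 h (Nfkbiz, lower, as in 6.67% of all genes, with 6.33% higher and 13% in either direction) and for 2 at 3 h (Nfkbiz and Tnfaip3, higher, as in 9.59%, with 9.14% lower and 18.7% in either direction).

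**Figure D2:**
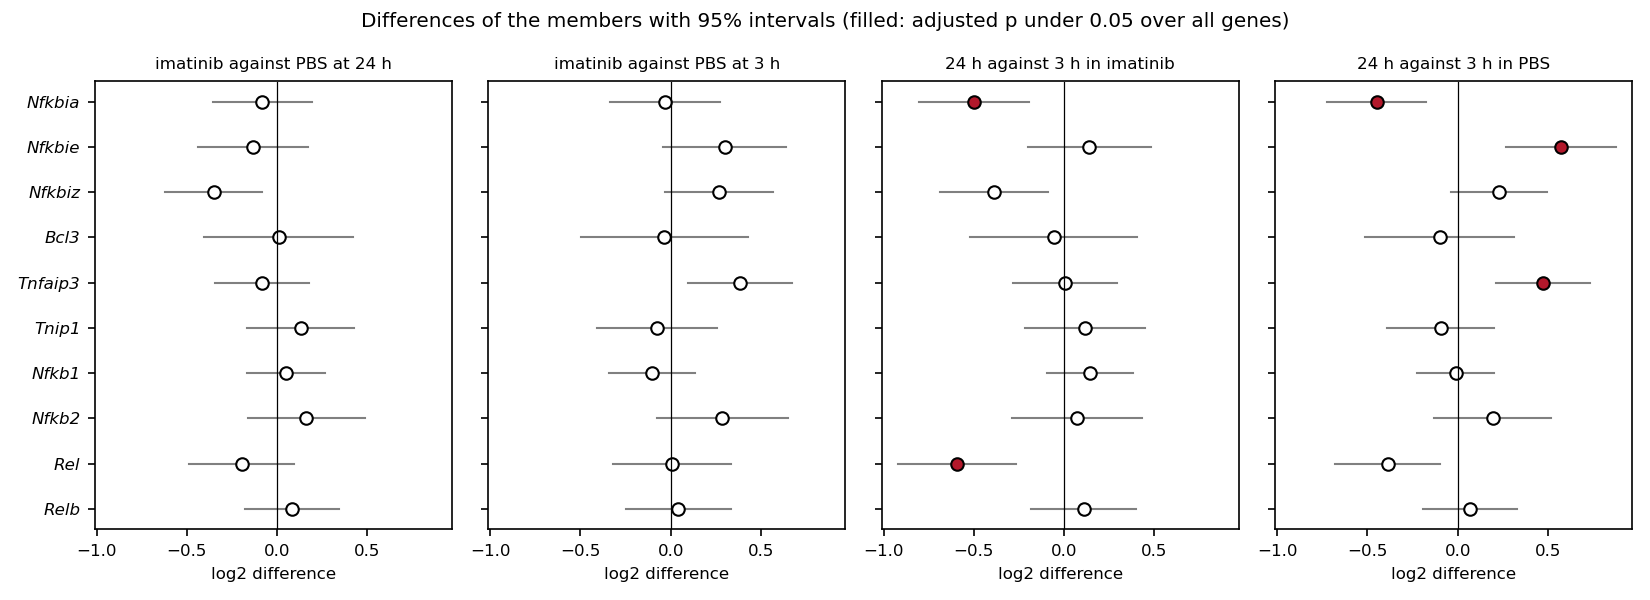
Log2 differences of the 10 members with 95% intervals in 4 comparisons, from the limma fit on all 11 arrays, with filled points where the adjusted p over all genes is under 0.05. Calls are found only between times, for Nfkbia and Rel in imatinib vessels and for Nfkbia, Nfkbie and Tnfaip3 in PBS vessels, and none between treatments.

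Nfkbiz was -0.35 ± 0.122 in imatinib against PBS vessels at 24 h (unadjusted p = 0.0142, adjusted p = 0.802) and 0.27 ± 0.136 at 3 h (unadjusted p = 0.0753, adjusted p = 0.805). By limma its interaction was -0.62 ± 0.183 (unadjusted p = 0.0058, adjusted p = 0.867), with a 95% interval of -1.02 to -0.22. That p ranked 193 among 30789 genes. At 3 h Tnfaip3 was 0.38 ± 0.132 higher in imatinib vessels (1.30-fold, unadjusted p = 0.0139, adjusted p = 0.716), and Nfkbie 0.30 ± 0.156 and Nfkb2 0.29 ± 0.165 higher with overlapping arrays. Tnf, which encodes a ligand that starts the pathway, lay 0.59 higher in imatinib vessels at 3 h (adjusted p = 0.751).

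Mean levels of some cell type markers also lay apart between the treatments, though no marker passed the test. Those of pericytes changed order between times, with no overlap at either time. Astrocyte means also changed order (7.27 in imatinib and 7.24 in PBS vessels at 24 h, 7.26 and 7.48 at 3 h). So did neuron means (5.19 and 5.10 at 24 h, 5.08 and 5.21 at 3 h), but both lists overlapped at each time. The mean log2 signal of 8 pericyte markers was 9.12 to 9.30 in imatinib and 8.79 to 9.04 in PBS vessels at 24 h, and 9.28 to 9.34 in imatinib and 9.44 to 10.02 in PBS vessels at 3 h, the opposite order to Nfkbiz, with 8 of 8 differences above 0 at 24 h, 0 of 8 above 0 at 3 h and none past the threshold. After each group's mean was taken away, Pearson's r over the 11 arrays between Nfkbiz and the mean of these markers was -0.11. This r was -0.51 with the endothelial, 0.39 with the monocyte and macrophage and 0.52 with the neutrophil markers. With lists of pathway genes it was 0.60 (adaptors and kinases), 0.53 (other subunits and I-kappa-B genes), 0.51 (target genes) and 0.48 (receptors and ligands). For the remaining lists it lay between -0.39 (smooth muscle) and 0.33 (microglia). The 12 endothelial markers had 10.90 to 11.00 in imatinib and 10.61 to 10.80 in PBS vessels at 24 h, with 12 of 12 differences above 0, 8 at an unadjusted p under 0.05 and none past the threshold, and 11.20 to 11.22 in imatinib and 11.04 to 11.20 in PBS vessels at 3 h, with 10 of 12 above 0. By limma 6.1% of all genes had an unadjusted p under 0.05 at 24 h. Of all 30789 genes, 14507 differences were above 0 at 24 h and 15588 at 3 h. For 9 monocyte and macrophage markers the level was 8.77 to 8.96 in imatinib and 8.93 to 9.45 in PBS vessels at 24 h (1 of 9 above 0), and 6.66 to 6.76 in imatinib and 6.56 to 7.0 in PBS vessels at 3 h (3 of 9). At 24 h and 3 h, differences above 0 numbered 0 and 3 of 9 neutrophil, 0 and 0 of 7 microglia and 2 and 0 of 5 smooth muscle markers. They numbered 5 and 1 of 7 astrocyte, 1 and 3 of 6 T and NK cell, 2 and 1 of 5 B cell and 4 and 3 of 7 neuron markers. The part of these cells in the Nfkbiz values was not tested.

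The rest of the pathway was described by lists of genes in their roles. Of 18 ligands and receptors, 4 rose and 2 fell between times in imatinib vessels, and as many in PBS vessels. Of 26 adaptors and kinases, 3 rose and 3 fell in imatinib vessels, and 4 rose and 3 fell in PBS vessels. Of 13 other negative regulators, 2 fell in imatinib and 3 in PBS vessels and none rose. Of 32 target genes, 10 rose and 5 fell in imatinib vessels, and 12 rose and 6 fell in PBS vessels. By the same test, 7.76% of all genes rose and 5.32% fell in imatinib vessels, and 9.34% rose and 7.28% fell in PBS vessels. The median difference of the target genes was 0.39 in imatinib and 0.33 in PBS vessels, and that of the other negative regulators was -0.13 in imatinib and -0.20 in PBS vessels, beside the medians over all genes given above. The lists were chosen with earlier results of these data known, and members and target genes were not tested against each other.

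**Figure D3:**
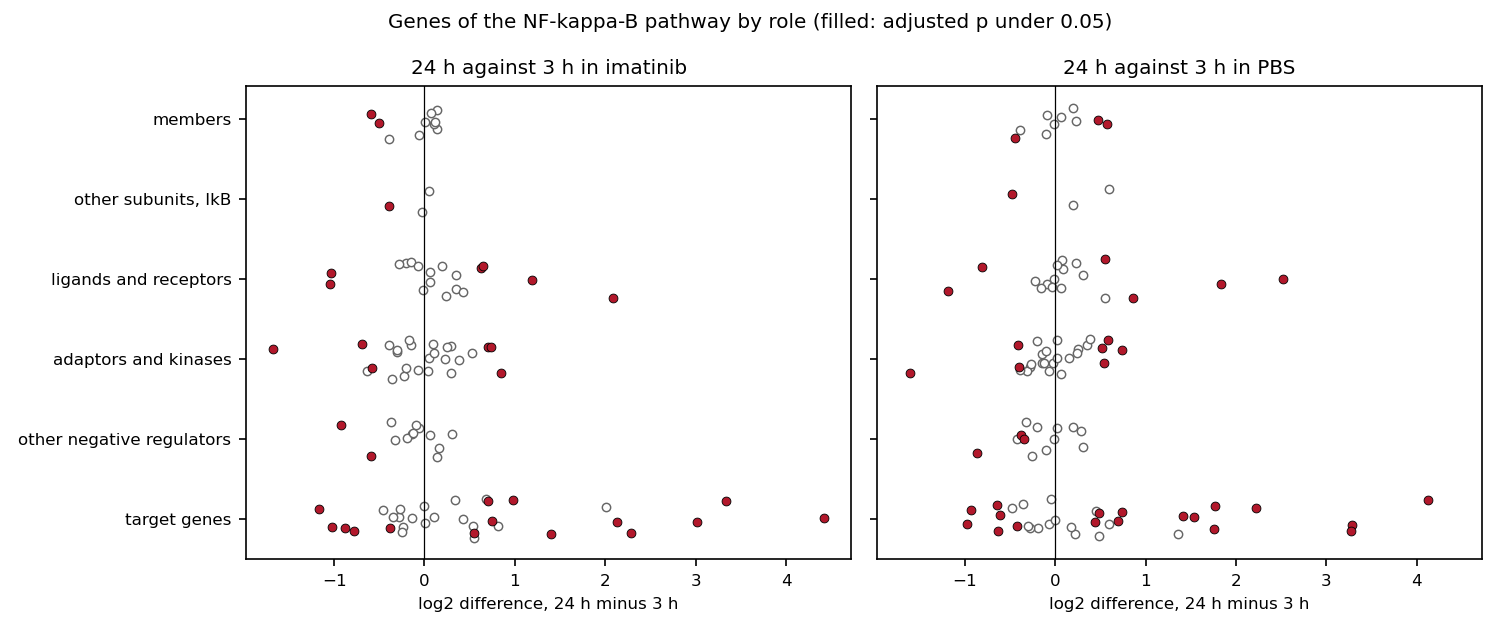
Log2 difference between 24 h and 3 h of every measured gene of the members and of 5 lists of other pathway genes, in imatinib vessels (left) and PBS vessels (right), with filled points where the adjusted p over all genes is under 0.05 and vertical scatter only for legibility. The members lie between -0.59 and 0.57, and target genes reach 4.42 in imatinib and 4.12 in PBS vessels. The target list is longer and was chosen with earlier results of these data known, so these ranges do not compare the lists.

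Of the ligands, Il1b (interleukin 1 beta) and Tnf rose in both treatments. Il1b ranged from 10.09 to 10.49 in imatinib and from 10.19 to 11.20 in PBS vessels at 24 h, against 7.96 to 8.48 in imatinib and 7.82 to 8.45 in PBS vessels at 3 h (2.08 ± 0.286 in imatinib and 2.52 ± 0.256 in PBS vessels). Tnf rose by 1.19 ± 0.239 in imatinib and 1.83 ± 0.214 in PBS vessels. Of the receptors, Tlr2 (0.62 and 0.86 in imatinib and PBS vessels) and Tlr4 (0.64 and 0.56) rose, and Il1r1, which carries the interleukin 1 signal (-1.04 and -1.19), and Tnfrsf12a, the receptor of TWEAK (-1.05 and -0.80), fell.

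Of the adaptors, Irak2, a kinase-like adaptor of interleukin 1 and Toll-like receptors, fell, with 7.54 to 7.83 in imatinib and 7.51 to 7.68 in PBS vessels at 24 h against 9.30 to 9.46 in imatinib and 8.84 to 9.56 in PBS vessels at 3 h. Irak3, which blocks the same receptor complex, also fell (-0.93 in imatinib and -0.87 in PBS vessels), as did the ubiquitin ligase gene Birc3 (-0.70 and -0.41). Irak4, the kinase that starts that complex, rose (0.85 and 0.59), and so did Traf3, a brake on the non-canonical pathway (0.73 and 0.74). The adaptor genes Tradd (0.54) and Myd88 (0.52) rose and the I-kappa-B kinase gene Ikbkb (-0.40), the deubiquitinase gene Otud7b (-0.37) and Tax1bp1, an adaptor of A20 (-0.35), fell in PBS vessels. In imatinib vessels these 5 were 0.29, 0.22, -0.30, -0.14 and -0.20 and did not pass.

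The target genes with the largest rise in PBS vessels, which also rose in imatinib vessels, were Saa3, an acute phase protein (4.42 in imatinib and 4.12 in PBS vessels), the monocyte-attracting chemokine genes Ccl2 (3.33 and 3.29) and Ccl7 (3.02 and 3.28), and the complement gene C3 (1.39 and 2.22). Bcl2l1, an inhibitor of cell death (-1.03 and -0.97), the dendritic cell marker Cd83 (-1.16 and -0.93) and Gadd45b, a stress-response gene (-0.88 and -0.64), fell in both treatments. The coagulation starter F3 fell in PBS vessels (-0.63) and was -0.46 in imatinib vessels (adjusted p = 0.128). Of the 25 genes named here with Rela and called in PBS vessels, 19 kept their call without any 1 array, and Traf3, Tradd, Myd88, Otud7b, Tax1bp1 and F3 lost it without at least 1 of the 6 PBS arrays (highest adjusted p = 0.146), Tradd also without imatinib 24 h replicate 3 and Myd88 without imatinib 24 h replicate 2. In imatinib vessels 12 of 19 kept their call. Tnf, Il1r1, Tnfrsf12a and C3 lost it without imatinib 3 h replicate 1 and Tlr4 without imatinib 3 h replicate 2, while Rela and Traf3 lost it without several arrays (highest adjusted p = 0.339).

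Between treatments none of these lists had a gene past the threshold. The smallest p in each list at 24 h belonged to Cxcl5 (0.42 in imatinib against PBS vessels, adjusted p = 0.802), Birc3 (-0.22, 0.815), Tlr2 (-0.23, 0.818), Otud7b (0.20, 0.836) and Rela (0.11, 0.905). At 3 h it belonged to Cxcl10 (-0.59, adjusted p = 0.708), Map3k14 (0.37, 0.711), Tnf (given above), Trim30a (0.32, 0.772) and Nfkbid (0.40, 0.857).

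Markers of blood-borne, vessel wall and glial cells moved with time beside the members. The mean log2 signal of 9 monocyte and macrophage markers was 8.77 to 8.96 in imatinib and 8.93 to 9.45 in PBS vessels at 24 h, against 6.66 to 6.76 in imatinib and 6.56 to 7.0 in PBS vessels at 3 h, with 8 of 9 markers called higher in each treatment. For 9 neutrophil markers, of which 3 rose in each treatment, it was 6.63 to 6.86 in imatinib and 6.68 to 7.29 in PBS vessels at 24 h, against 5.91 to 6.17 in imatinib and 5.85 to 6.65 in PBS vessels at 3 h. Endothelial markers were lower at 24 h, 10.90 to 11.00 in imatinib and 10.61 to 10.80 in PBS vessels against 11.20 to 11.22 in imatinib and 11.04 to 11.20 in PBS vessels at 3 h, with 3 of 12 called lower in imatinib and 5 of 12 in PBS vessels. Of 8 pericyte markers, 0 were called in imatinib vessels and 6 were called lower in PBS vessels (median differences -0.14 and -0.71). In the limma interaction, which tests the difference between these courses, none of the 8 passed. All 8 were above 0 there (14860 of all 30789 genes), and 6 had an unadjusted p under 0.05 (5.49% of all genes). Of 5 smooth muscle markers, 1 was called lower in imatinib and 2 in PBS vessels (median differences -0.51 and -0.72), and of 7 microglia markers likewise 1 in imatinib and 2 in PBS vessels (-0.13 and -0.42). Of 7 astrocyte markers, 2 were called lower in imatinib and 4 in PBS vessels, and 1, Gfap, named after its values were seen, was called higher in both (1.49 in imatinib and 1.37 in PBS vessels). By limma 0 of the 18 T and NK cell, B cell and neuron markers were called, and 3 in imatinib and 1 in PBS vessels had an unadjusted p under 0.05. In the same limma fit 13.1% of all genes were called in imatinib and 16.6% in PBS vessels. An unadjusted p under 0.05 was found for 25% and 27.3% of them. The part of these cells in the members' differences was not tested.

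Within the groups, Bcl3, Nfkb2 and Tnip1 varied together from array to array. After each group's mean was taken away, Pearson's r over the 11 arrays was 0.95 between Bcl3 and Nfkb2, 0.87 between Bcl3 and Tnip1 and 0.83 between Nfkb2 and Tnip1, where the median of all 45 pairs of members was 0.02 and the lowest was -0.44. In PBS 3 h replicate 1 the 3 genes differed from their group means by -0.42, -0.30 and -0.21, and in PBS 3 h replicate 3 by 0.32, 0.29 and 0.20. Nfkbiz and Tnfaip3 (0.78), Tnfaip3 and Nfkb1 (0.76) and Nfkbia and Tnfaip3 (0.67) followed. These points share the arrays' RNA and normalization and the 4 group means, and are given as a description.

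**Figure D4:**
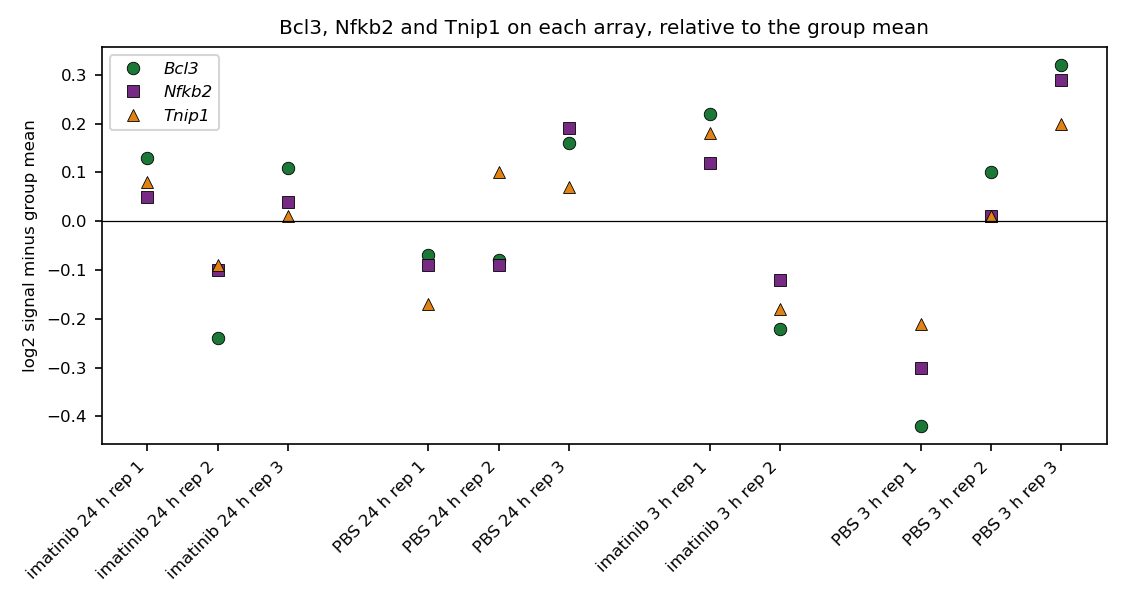
Log2 signal minus the group mean of Bcl3, Nfkb2 and Tnip1 on each of the 11 arrays, in 4 groups. The 3 genes lie on the same side of 0 on every array except PBS 24 h replicate 2, where Tnip1 (0.10) is above and the others (-0.08 and -0.09) below. Deviations sum to 0 in each group, so the arrays are not independent points. The 2 imatinib 3 h arrays mirror each other (0.22 and -0.22 for Bcl3). Some values are close to 0, such as Nfkb2 and Tnip1 in PBS 3 h replicate 2 (both 0.01).

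Other lists moved with the same arrays. The within-group r with the mean of the smooth muscle markers was -0.69 for Bcl3, -0.73 for Nfkb2 and -0.45 for Tnip1, and with the mean of the microglia markers it was -0.70, -0.67 and -0.41. With B cell markers it was -0.66, -0.58 and -0.52, and with T and NK cell markers -0.66, -0.60 and -0.26. With the mean of the target genes it was 0.66, 0.78 and 0.64, and with receptors and ligands 0.68, 0.76 and 0.68. For the other 9 lists it lay between -0.40 and 0.39 for Bcl3, between -0.34 and 0.56 for Nfkb2 and between -0.26 and 0.27 for Tnip1. These correlations were not particular to the 3 genes. Nfkb1 had -0.51 with smooth muscle, -0.68 with microglia and -0.66 with T and NK cell markers, but -0.08 with B cell markers. It had 0.49 with the target genes and 0.28 with receptors and ligands. The highest r of any member with a list was 0.93 for Nfkb1 and 0.88 for Tnfaip3, both with adaptors and kinases. The part of these lists in the shared variation was not tested.

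For each member the 2 genes with the most similar course over all 11 arrays were looked up among 12480 named genes above the median signal. They were Trbj1-6 (r = 0.957) and Pfkfb3 (0.953) for Nfkbia, Hpgd (0.952) and Ldhb (0.949) for Rel, Alkbh3 (0.938) and Nup54 (0.937) for Nfkbie, Pelp1 (0.928) and Fastkd1 (0.912) for Tnfaip3, and Pdzk1ip1 (0.896) and Polg2 (0.873) for Nfkbiz. Sbno2 (0.91) and Fnip2 (0.899) were nearest to Bcl3, Fam219a (0.926) and Ngly1 (0.924) to Nfkb2, Tiam1 (0.846) and Bcl7b (0.831) to Tnip1, Atxn2l (0.913) and Zgpat (0.852) to Nfkb1, and Mroh5 (0.915) and H2afx (0.912) to Relb. All of these correlations are maxima over many genes on the same arrays, which also share the difference between times.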

How the data were processed

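RNA of vascular fragments was measured on 11 Affymetrix arrays. Per the labels' protocols, 10 ng of total RNA was amplified (NuGEN Ovation Pico WTA V2) and labelled with biotin. The authors deposited 33793 probe sets as log2 signals, and the submitters' processing notes name Affymetrix Expression Console, RMA and limma. No label read here names the array type or a genome build. The values were not normalized again, and both deposited tables held the same values (largest gap 0).

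Probe sets with no symbol (1591), several symbols (128) or a symbol turned into a date or number (15) were left out, and the row with the highest mean was kept for 730 genes, which left 30789. The fit (limma 3.58.1, R 4.3.3) gave 1 mean for each of 4 groups on all 11 arrays and 5 contrasts. Spread was moderated with eBayes (7 residual and 4.37 prior degrees of freedom), Benjamini-Hochberg adjustment ran over all genes, and errors are SE unless SD is written. The pipeline was tested on simulated data. Alternatives left out 1 array, changed the normalization, the variance model, the arrays fitted or the rows used, or added the replicate number as a block. The members and lists were chosen with earlier results of these data known. All members and Rela are named, and of each pathway list, for either direction, at most 4 genes, those that changed most past the threshold in PBS vessels, plus the smallest p for imatinib. Of 170 list entries 3 were not measured. Promoters came from a RefSeq table. Figures were drawn with matplotlib 3.10.9.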

Additional observations from a re-analysis of the deposited data

Results flagged for a closer look

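Nfkbiz stood out because the imatinib arrays lay below the PBS arrays at 24 h and above them at 3 h, without overlap at either time. The test of that difference between times, the limma interaction, was -0.62 ± 0.183 (unadjusted p = 0.0058) and did not pass over all genes (adjusted p = 0.867, 0.682 to 0.998 over the alternatives). Its sign was negative in each of the 18 alternatives run, from -0.71 to -0.50. No other member showed opposite orders of this kind, and how many of all genes did was not counted. Taking each time alone, 6.67% of all genes lay lower with imatinib without overlap at 24 h, and 9.59% lay higher at 3 h. Groups of 2 and 3 arrays were not searched for a single deviating array.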

How the results depend on the processing

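Each result was recomputed with 19 alternatives (18 for the interaction, where fitting only the compared groups was not run). No alternative called any member between treatments or in the interaction. Over time in imatinib vessels the 2 calls became 0 to 2 when 1 array was left out, 0 without imatinib 24 h replicate 3 and 1 without any other imatinib array. They were 1 with the replicate block (Rel -0.60, adjusted p = 0.0529), 1 in a fit of only the 2 groups (Nfkbia -0.50, adjusted p = 0.0676) and 1 with arrays centred on their medians (Nfkbia -0.46, adjusted p = 0.0528). Over time in PBS vessels the 3 calls became 1 to 3 when 1 array was left out, with 1 left without replicate 1 or 3 of PBS at 3 h and without replicate 2 of PBS at 24 h. Without PBS 24 h replicate 3, Nfkbie (0.55, adjusted p = 0.0529) and Tnfaip3 (0.38, 0.0723) lost their calls. Rel was called in that fit instead (-0.50, adjusted p = 0.0331). The replicate block changed no other call of a member. Same-numbered arrays did not deviate together over all genes (r over genes -0.04 to 0.06 in 15 pairs), nor did others (-0.06 to 0.05 in 30 pairs). An r over all genes cannot show a pairing that touches only some of them, so pairing was not excluded. Rel also passed in PBS vessels with the trended, robust variance model (-0.39, adjusted p = 0.0381) and with cyclic loess (-0.43, 0.0449). The cause of these changes was not tested, and fewer arrays were fitted where 1 was left out.

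The sign of some differences that did not pass in either fit turned. With the replicate block these were, for imatinib against PBS at 3 h, Nfkbia (0.01) and Bcl3 (0.06), over time in imatinib vessels Tnfaip3 (-0.05) and Nfkb2 (-0.02), and in the interaction Bcl3 (-0.05). For imatinib against PBS at 24 h Bcl3 was -0.01 with array weights and -0.02 with cyclic loess, Tnfaip3 over time in imatinib vessels was -0.06 with cyclic loess, and Nfkb1 over time in PBS vessels was 0.01 with centred arrays. When 1 array was left out, values ranged on both sides of 0 for imatinib against PBS at 3 h in Nfkbia (-0.22 to 0.16), Rel (-0.13 to 0.15), Bcl3 (-0.25 to 0.18), Relb (-0.06 to 0.17) and Tnip1 (-0.26 to 0.10), and at 24 h in Bcl3 (-0.06 to 0.13), Nfkb1 (0.00 to 0.10, turned only without PBS 24 h replicate 2) and Tnfaip3 (-0.18 to 0.01). Over time in imatinib vessels this held for Tnfaip3 (-0.11 to 0.12), Bcl3 (-0.28 to 0.16), Nfkbie (-0.03 to 0.31), Nfkb2 (-0.05 to 0.19) and Tnip1 (-0.06 to 0.29), and in PBS vessels for Relb (-0.01 to 0.19), Bcl3 (-0.31 to 0.06), Nfkb1 (-0.06 to 0.05) and Tnip1 (-0.20 to 0.01). In the interaction it held for Relb (-0.09 to 0.14), Nfkb2 (-0.27 to 0.03), Nfkbia (-0.24 to 0.14) and Bcl3 (-0.18 to 0.26).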
